A study of Mus musculus with 2 samples.

Results

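Apoe, C1qa, C1qb, C1qc and Lyz2 are genes that macrophages express strongly, and they were taken by symbol as 5 of the 31053 genes counted in mediastinal lymph node (MedLN) cells of mice with asthma. The members were selected on their UMI levels in Lyz2, B and T cells, with earlier results of these data known. These levels are therefore given as a description. The comparison followed is how Apoe was placed in B cells beside C1q and Lyz2, with T cells of the same library as the reference. Both libraries came from WT mice of strain C57/B6J that had been sensitized to ovalbumin (OVA) with alum and then challenged with it through the nose. The library labelled OVA is from mice w/o butyrate and the library labelled C4 is from mice with butyrate supplementation, a short-chain fatty acid made by gut bacteria. The study gave sodium butyrate in the water or by gavage, starting before OVA or, in some experiments, at the challenge stage. The route and timing used for these mice are not given in the sources used here. Mice of the study were matched for age and sex within an experiment. An age range in weeks is stated for all of them together, not the age of these. The cells of 4 mice were pooled in each library, so a group is 1 sample, mice cannot be told apart, and no test of butyrate could be made.

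Apoe encodes apolipoprotein E, a lipid carrier that is made by liver cells and macrophages and that takes cholesterol out of cells. C1qa, C1qb and C1qc encode the chains of C1q, the part of complement that recognizes antibody bound to antigen and dying cells, and tissue macrophages are a main source of it. Lyz2 encodes lysozyme M, an enzyme of myeloid cells that cuts bacterial cell walls. Droplet libraries also take up RNA set free from broken cells, and RNA of a given source reaches the droplets of every cell type in much the same proportions.

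In GRCm38 all members lie on the minus strand as protein-coding genes, Apoe at chr7:19696109-19699188 and Lyz2 at chr10:117277331-117282321. The C1q genes are neighbours, C1qb at chr4:136880129-136886187, C1qc at chr4:136889804-136893065 and C1qa at chr4:136895917-136898803. Lyz1, a near copy of Lyz2, lies beside it at chr10:117287797-117292868, and how reads that fit both were handled was not examined. The stretch upstream of the start is shown for the members with a RefSeq promoter window (GRCm38.p6), because the question is whether Apoe keeps company with the other members. A window of 250 bases upstream was found for 4 of the 5 members, and C1qa had no entry. Each sequence reads 5′ to 3′ on the minus strand towards the start, for Apoe the outermost of 3 RefSeq starts, and capitals mark the motif letters found.
Apoe, chr7:19699189-19699438: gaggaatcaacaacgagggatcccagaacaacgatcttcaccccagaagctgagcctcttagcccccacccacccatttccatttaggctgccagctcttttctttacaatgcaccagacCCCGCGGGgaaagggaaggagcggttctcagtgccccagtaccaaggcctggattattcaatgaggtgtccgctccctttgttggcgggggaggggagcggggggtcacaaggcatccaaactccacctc
C1qb, chr4:136886201-136886450: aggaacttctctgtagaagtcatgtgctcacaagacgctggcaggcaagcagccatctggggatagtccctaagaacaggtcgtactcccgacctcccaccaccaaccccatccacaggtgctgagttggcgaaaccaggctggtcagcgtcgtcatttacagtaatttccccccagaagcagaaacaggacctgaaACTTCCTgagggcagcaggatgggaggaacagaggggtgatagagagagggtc
C1qc, chr4:136893066-136893164: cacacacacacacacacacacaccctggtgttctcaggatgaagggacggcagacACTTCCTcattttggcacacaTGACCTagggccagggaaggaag
Lyz2, chr10:117282322-117282522: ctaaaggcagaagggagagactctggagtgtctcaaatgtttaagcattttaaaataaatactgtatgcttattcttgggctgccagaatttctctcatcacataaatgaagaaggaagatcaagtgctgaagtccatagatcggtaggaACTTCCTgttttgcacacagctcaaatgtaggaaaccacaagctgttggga
The motifs searched on both strands were AGGAAGT (PU.1, a myeloid and B cell factor), CCCNNGGG (EBF1, a B cell factor), TTGCNNAA (C/EBP), AGGTCA (the core bound by nuclear receptors) and GGGCGG (GC box). They occur in 7.69%, 11.8%, 9.56%, 14.0% and 32.7% of 32851 such windows. The C1qb, C1qc and Lyz2 windows each held the PU.1 letters, at 53 to 47, 195 to 189 and 100 to 94 bases before the start. Those letters are not in the Apoe window, which held an EBF1 match 130 to 123 bases before the start. C1qc also held the nuclear receptor core at 174 to 169 bases and, nearer the start than the stretch shown, a GC box. No capitals overlap each other, and a match is only a match of letters.

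The deposited counts held 9681 cells w/o butyrate and 8932 with butyrate, with medians of 5140 and 5651 unique molecular identifiers (UMIs, counted RNA molecules) per cell. After filters, 8748 and 7992 cells were kept, of which 25 barcodes occurred in both libraries. Lyz2 cells (3 or more Lyz2 UMIs) numbered 43 w/o and 37 with butyrate, with median depths of 8448 and 6787 UMIs. B cells (3 or more UMIs of Cd79a, a chain of the B cell receptor, and 0 of Cd3e) numbered 4079 and 3850, with median depths of 4404 and 4608. T cells (2 or more UMIs of Cd3e, a chain of the T cell receptor complex, and 0 of Cd79a) numbered 2443 and 2472 and were deeper, with medians of 6089 and 7030.5. B and T cells also had fewer than 3 Lyz2 UMIs. Marker levels were those of lymphoid cells, with 33.1 and 36.1 UMIs per cell of a list of 6 B cell genes in B cells and 24.8 and 27.5 of a list of 6 T cell genes in T cells, though Cd79a and Cd3e, which set the classes, are among them. All intervals below are at 95% and hold the error of counting, while the spread among mice or pools is outside them. For levels and ratios, the uneven spread of UMIs over cells is outside them too.

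Apoe was found at its highest level per cell in Lyz2 cells, but most of its UMIs lay in B cells. W/o butyrate the 43 Lyz2 cells held 802 Apoe UMIs, or 18.7 per cell (17.4 to 19.99), and with butyrate the 37 Lyz2 cells held 925, or 25 per cell (23.4 to 26.7). B cells held 8096 Apoe UMIs w/o butyrate, 1.98 per cell (1.94 to 2.03), and 5287 with butyrate, 1.37 per cell (1.34 to 1.41). T cells held only 161 and 76, or 0.0659 and 0.0307 per cell. Thus B cells carried 86.0% of all Apoe UMIs of kept cells w/o butyrate and 80.8% with butyrate, against 8.52% and 14.1% in Lyz2 cells and 1.71% and 1.16% in T cells. In the rank of all genes by their level in B cells, Apoe stood at place 266 w/o and 413 with butyrate. The classes kept the same order for Apoe in both libraries, Lyz2 cells above B cells above T cells, with counting intervals that did not overlap. These intervals leave out the spread among cells.

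**Figure D1:**
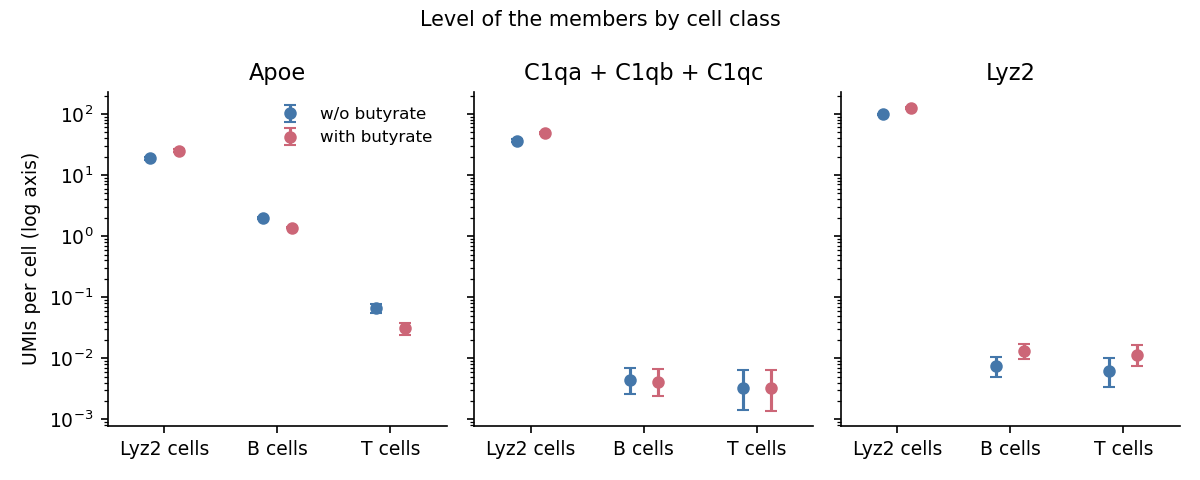
UMIs per cell (log axis) of Apoe, summed C1q genes and Lyz2 in Lyz2 cells, B cells and T cells of both libraries, with exact Poisson 95% intervals as bars. For Apoe the B cell points (1.98 and 1.37) sit far above the T cell points (0.0659 and 0.0307), while for C1q and Lyz2 the B and T cell points lie side by side.

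C1q, by contrast, was almost wholly in Lyz2 cells. The 3 genes together gave 1563 UMIs in Lyz2 cells w/o butyrate (36.3 per cell) and 1799 with butyrate (48.6 per cell), which was 97.3% and 98.4% of all C1q UMIs. In B cells they gave 18 and 16 UMIs, or 0.00441 and 0.00416 per cell, and in T cells 8 and 8, or 0.00327 and 0.00324 per cell. No B cell held more than 1 C1q UMI w/o butyrate or more than 2 with butyrate. The chains were each distributed in this way. C1qa, the A chain, had 593 and 592 UMIs in Lyz2 cells, 9 and 4 in B cells and 4 and 5 in T cells. C1qb, the B chain, had 568 and 768 in Lyz2 cells, 6 and 9 in B cells and 1 and 1 in T cells. C1qc, the C chain, had 402 and 439 in Lyz2 cells, 3 and 3 in B cells and 3 and 2 in T cells. At so few UMIs the levels of C1q in B and T cells overlapped in their intervals.

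Lyz2 behaved like C1q outside the cells it defined. It gave 4212 UMIs in Lyz2 cells w/o butyrate and 4642 with butyrate (98.0 and 125 per cell), values that the class rule itself sets. B cells held 30 and 50 Lyz2 UMIs and T cells 15 and 28, all under the limit of 3 per cell that the class rule put on them. Lyz1 gave 16 and 72 UMIs in Lyz2 cells, in 5 and 9 of the cells, and 0 and 1 in B cells.

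The share of cells with an Apoe UMI was likewise far apart between B and T cells. It was 42.1% of B cells w/o butyrate (40.6 to 43.7) and 33.9% with butyrate (32.4 to 35.4), against 3.68% and 2.91% of the deeper T cells. The share with a C1q UMI was 0.441% and 0.390% in B cells and 0.327% and 0.324% in T cells. The share with a Lyz2 UMI was 0.711% and 1.27% in B cells and 0.614% and 1.09% in T cells. For C1q and Lyz2 the share in B cells was near that in T cells, which should lack them, and no expression is read from it. When each cell was thinned to 2000 UMIs, which left out 32 and 11 B cells and 3 and 5 T cells, Apoe was found in 30.2% and 23.0% of B cells and in 1.35% and 0.865% of T cells. Thinned C1q shares were 0.160% and 0.179% in B cells and 0.0986% and 0.0781% in T cells, and thinned Lyz2 shares were 0.321% and 0.495% against 0.186% and 0.337%.

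Apoe in B cells stood apart from C1q and Lyz2 in both libraries. Per cell, Apoe was 30.1 times as high in B as in T cells w/o butyrate (25.8 to 35.4) and 44.7 times with butyrate (35.6 to 56.8). The same ratio was 1.35 (0.558 to 3.58) and 1.28 (0.519 to 3.47) for C1q and 1.20 (0.625 to 2.40) and 1.15 (0.708 to 1.89) for Lyz2, all with intervals that span 1. On the log2 scale the ratio of Apoe exceeded that of C1q by 4.48 (3.05 to 5.78) w/o butyrate and 5.12 (3.64 to 6.47) with butyrate. The order of the libraries was not firm, since without the 3 T cells with 10 or more Apoe UMIs the log2 B over T ratio of Apoe w/o butyrate went from 4.91 to 5.78, and at no more than 5% mitochondrial UMIs to 5.51, beside 5.48 and 5.36 with butyrate. Against Lyz2 the excess was 4.65 (3.62 to 5.62) and 5.28 (4.48 to 6.06). Of genes with at least 50 UMIs over B and T cells, 8.79% of 10509 w/o and 8.06% of 10495 with butyrate were at least 2 times as high in B as in T cells. Apoe was above that mark, Lyz2 had enough UMIs with butyrate only and was not above it, and the C1q genes had too few UMIs. In all, 237 and 189 genes, or 2.26% and 1.80%, had a B over T ratio at or above its own. Since the classes and Apoe were chosen with these levels known, the counts describe where Apoe lies and test nothing.

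The same counts, written as proportions between members, set the classes side by side. Lyz2 cells held 0.513 Apoe UMIs for each C1q UMI w/o butyrate and 0.514 with butyrate, while T cells held 20.1 and 9.5 and B cells 450 and 330. For each Lyz2 UMI, Lyz2 cells held 0.190 and 0.199 Apoe UMIs, T cells 10.7 and 2.71 and B cells 270 and 106. The proportions to Lyz2 were in part fixed by the class rule, which asks for Lyz2 in Lyz2 cells and limits it in B and T cells.

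Set as a percent of the level in Lyz2 cells, B cells had 10.6% of the Apoe level w/o butyrate and 5.49% with butyrate, and T cells 0.353% and 0.123%. For C1q the percents were 0.0121% and 0.00855% in B cells and 0.00901% and 0.00666% in T cells. For Lyz2 they were 0.00751% and 0.0104% in B cells and 0.00627% and 0.00903% in T cells. A list of 30 macrophage genes, chosen with earlier results known, was measured in the same way for the 20 genes w/o and 18 with butyrate that had at least 50 UMIs in Lyz2 cells. Of these, 14 of 20 and 11 of 18 stood under 1% in B cells and 16 and 12 in T cells, with median B over T ratios of 1.09 and 1.15. The highest percent of the list in B cells was 8.03% w/o and 18.1% with butyrate, beside 10.6% and 5.49% for Apoe. Csf1r, the receptor for a macrophage growth factor, stood at 0.0316% in B and 0.0211% in T cells w/o butyrate. Other genes of the list also had unequal percents. Wfdc17 (B over T 56.4 and 65.5), Adgre1 (14.4 and 12.2), Lgmn (9.14 and 7.88) and Aif1 (4.94 and 2.43) were also higher in B cells, and Selenop (0.111 and 0.111) and Ctsd (0.172 and 0.154) were higher in T cells.

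**Figure D2:**
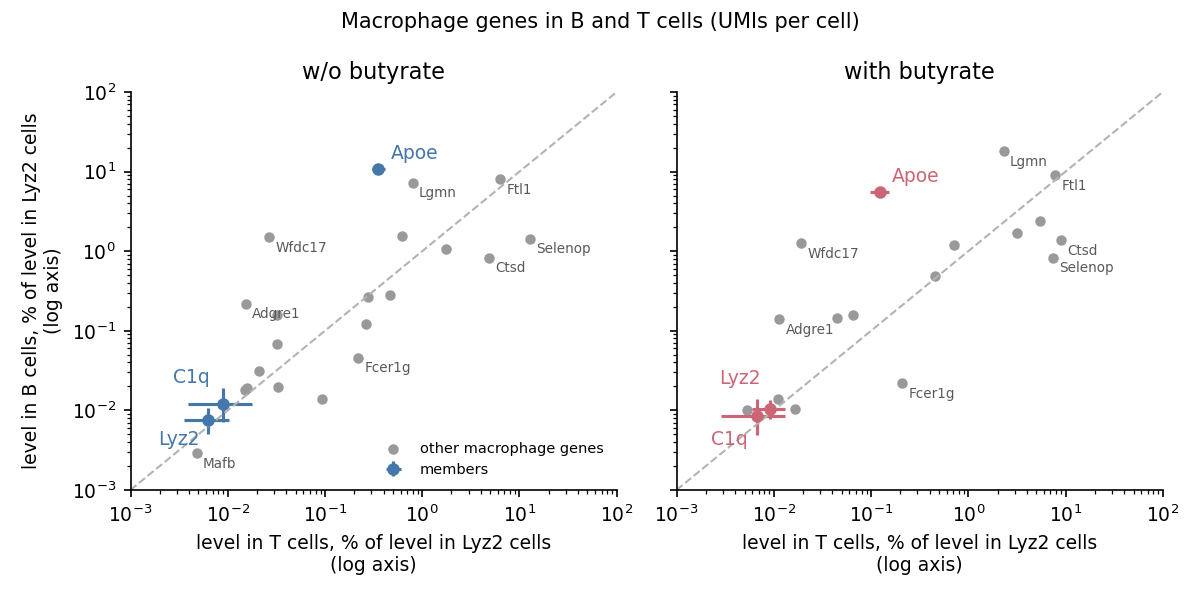
Level in T cells and in B cells of each gene as a percent of its level in Lyz2 cells (both axes log), for the members and the macrophage list, with a dashed line where both percents are equal. C1q and Lyz2 lie close to the line near 0.01%, and Apoe lies at 10.6% (w/o butyrate) and 5.49% (with butyrate) in B cells against 0.353% and 0.123% in T cells. Of the macrophage list, 20 genes w/o and 16 with butyrate are drawn, the other 2 being at 0 in B or T cells.

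The little Apoe in T cells was set beside the B cell genes found there. As a percent of the B cell level, T cells held 3.32% of Apoe w/o butyrate and 2.24% with butyrate. The same percent was measured for the B cell genes Cd79b (1.75% and 1.83%), Cd22 (2.62% and 1.85%), Pax5 (0.920% and 0.858%) and Ms4a1 (0.573% and 0.402%). In the other direction, T cell genes in B cells stood at 0.456% to 5.84% of their T cell level w/o butyrate and 0.505% to 4.52% with butyrate. The T cell value of Apoe w/o butyrate leaned on 3 cells with 42, 17 and 14 Apoe UMIs, picked out after the values were seen. These had 2, 9 and 31 Cd3e UMIs and 0 of Cd79b, Lyz2 and C1q, and with butyrate no T cell had over 2 Apoe UMIs. Without those 3 cells T cells held 0.0361 Apoe UMIs per cell (0.0289 to 0.0444) w/o butyrate, or 1.82% of the B cell level, beside 0.0307 (0.0242 to 0.0385) with butyrate. Among T cells with under 10 Apoe UMIs, an Apoe UMI was found in 3.65% and 4.24% of those with a Cd79b UMI and in 3.55% and 2.67% of those without. Whether RNA from B cells supplied the Apoe of T cells was not tested.

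As CPM (counts per 1000000 UMIs of the class), plasma cells held less Apoe than B cells. Plasma cells (38 and 11 cells) had 21.9 and 29.4 CPM, against 366 and 249 CPM in B cells and 9.62 and 3.98 CPM in T cells. Plasma cells were deep, with medians of 25554 and 27317 UMIs, and held 22 and 11 Apoe UMIs. Per cell they thus lay nearer to B cells than the CPM values show. They overlap with the B cells. Their medians were 6.5 and 13 Cd79a UMIs with 0 of Cd3e, so many of them also met the B cell rule. NK cells had no Apoe UMI in 12 and 28 cells, for which the limit of 3 counts still allows shares of 25% and 10.7%. Dendritic cells had 1 and 3 UMIs in 12 and 23 cells. CD4 T cells had 83 UMIs in 598 cells w/o and 18 in 577 cells with butyrate, and CD8 T cells 45 in 1261 and 39 in 1340. Which of these classes held the T cells with 42, 17 and 14 Apoe UMIs w/o butyrate is not given here. No difference between libraries is read from these counts.

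Within B cells Apoe was spread unevenly over cells. The variance of its UMIs per cell was 15.3 times the mean w/o butyrate and 9.99 times with butyrate. Random scatter of single molecules gives 1 among cells of equal depth. B cells differed in depth, and the part of depth in these values was not measured. C1q and Lyz2 were too sparse in B cells for that measure to be compared. While 57.9% and 66.1% of B cells had no Apoe UMI, 20.8% and 15.8% had 3 or more, and 189 and 110 cells, or 4.63% and 2.86%, had 10 or more. The highest B cells had 130 and 74. The top 1% of B cells (41 and 39 cells) held 20.3% and 19.7% of the Apoe UMIs. A C1q UMI was found in 0.297% and 0.432% of B cells with 0 Apoe UMIs, in 0.918% and 0% of those with 1 or 2 and in 0.455% and 0.803% of those with 3 to 9. Of those with 10 or more, 0 of 189 and 0 of 110 had one, and the limit of 3 counts still allows shares of 1.59% and 2.73%. These shares had no common order in the libraries, and a link of C1q with Apoe in B cells was not detectable at this depth.

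**Figure D3:**
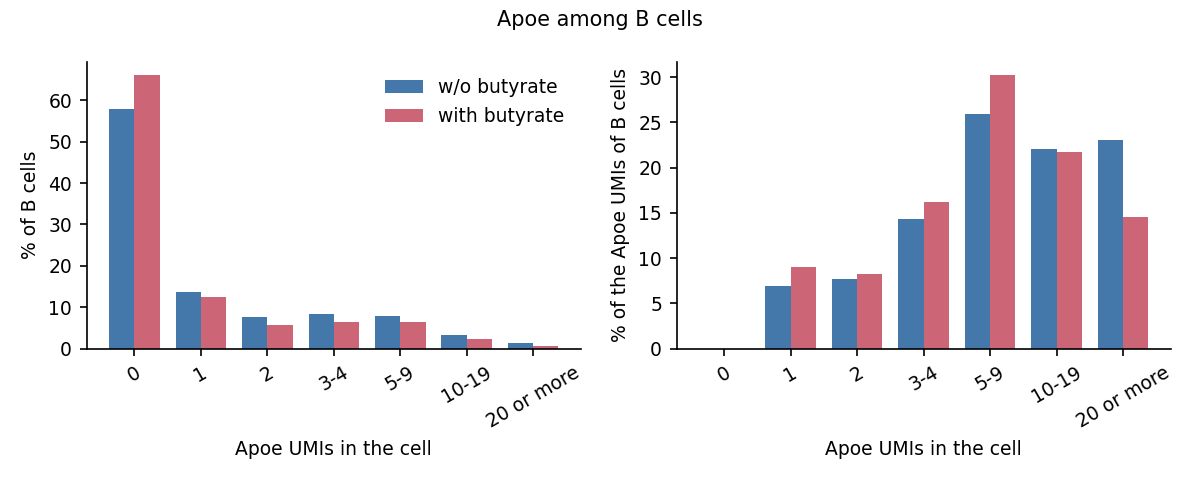
Percent of B cells and percent of the Apoe UMIs of B cells (bars from 0), by the number of Apoe UMIs in a cell, for each library. Cells without an Apoe UMI make up 57.9% w/o and 66.1% with butyrate, and the 52 and 23 cells with 20 or more hold 23.0% and 14.6% of the UMIs.

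Deeper B cells gave more Apoe UMIs per cell, but Apoe was a smaller share of all their UMIs. In B cells of low, middle and high depth, split into groups of equal size, Apoe stood at 1.51, 1.66 and 2.78 UMIs per cell w/o butyrate and at 1.09, 1.23 and 1.80 with butyrate. As CPM the order was the opposite, at 467, 374 and 323 w/o butyrate and 315, 264 and 213 with butyrate. This was not particular to Apoe. The B cell gene Cd79b stood at 1969, 1844 and 1451 CPM w/o butyrate and at 2130, 1950 and 1642 CPM with butyrate.

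As CPM, B cells with markers of memory, B1 or GC B cells held more Apoe than the other B cells in both libraries. GC cells that were also cycling, given below, were an exception. Cells with UMIs of at least 2 genes of the memory list (95 and 80 cells) had 930 and 557 CPM of Apoe, against 338 and 234 CPM in the other B cells. Cells with a UMI of Zbtb32, a repressor found in memory B cells, had 984 and 423 CPM against 345 and 242 CPM. Cells with a UMI of Cd5, a surface protein of B1 cells that T cells also carry, had 798 and 673 CPM against 357 and 244 CPM. Cells with a UMI of Cd9, a tetraspanin of marginal zone, B1 and plasma cells, had 551 and 428 CPM against 346 and 236 CPM. Germinal centre (GC) list cells (45 and 32) had 693 and 341 CPM against 353 and 246 CPM, and cells of the marginal zone or B1 list had 506 and 365 CPM against 347 and 236 CPM. Fcrl5, a receptor of memory and marginal zone B cells, went with 471 and 391 CPM against 349 and 231 CPM.

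Ighd and Fcer2a, markers of naive follicular B cells, and Cr2, a marker of follicular and marginal zone B cells, went the other way. B cells with a UMI of Ighd, the heavy chain of IgD, had 354 and 235 CPM of Apoe, against 468 and 461 CPM in those without. With Fcer2a, the low-affinity IgE receptor CD23, the values were 346 and 221 CPM against 409 and 339 CPM, and with Cr2, the complement receptor CD21, 321 and 193 CPM against 415 and 319 CPM. Cycling cells (92 and 37) had 178 and 169 CPM against 384 and 252 CPM. Per cell, those that also met the GC list (30 and 19) had 7.60 and 4.11 Apoe UMIs. Those that did not (62 and 18) had 1.95 and 2.28, while GC list cells outside the cycling list (15 and 13) had 23.5 and 8.77. Median depths differed, at 21120 and 14183, 18435 and 10412, and 7690 and 11019 UMIs in that order. As a share of their UMIs, cells of both lists held less Apoe than B cells outside the GC list with butyrate. W/o butyrate they were also lower, but only within the counting error. The higher CPM of the GC list thus lay in its 15 and 13 cells outside the cycling list. Jchain, which joins secreted IgM and IgA, gave 346 against 368 CPM w/o butyrate and 292 against 247 CPM with butyrate, so its direction was not shared. Cells in which a rare marker was found were deeper than the rest, for example a median of 13668 against 4383 UMIs for Zbtb32 w/o butyrate, and the part of depth in these differences was not tested.

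**Figure D4:**
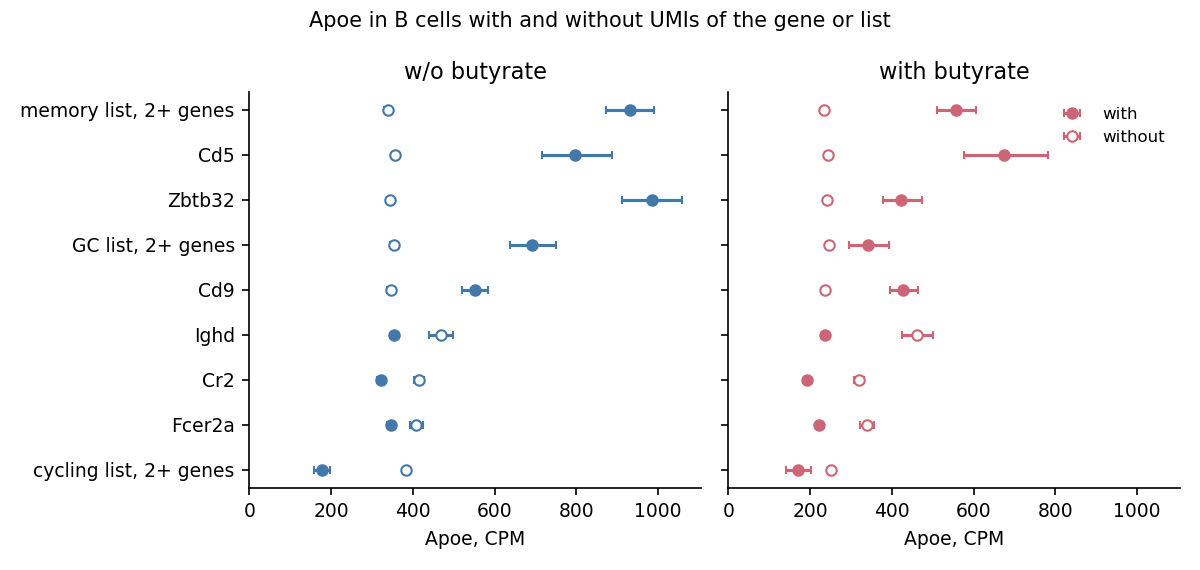
Apoe level (CPM, summed over the cells) in B cells with and without each marker or list, for both libraries. The memory list (930 against 338 CPM w/o and 557 against 234 CPM with butyrate) and Cd5 lie on the high side, and Ighd, Cr2, Fcer2a and the cycling list on the low side.

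Among 9288 genes, those that differed most towards B cells holding Apoe included the GC genes Rgs13 and Mybl1. They were ranked by the log2 CPM ratio between B cells with 3 or more and with 0 Apoe UMIs, taking the lower of both libraries. Rgs13, a GC signalling brake, had ratios of 1.47 and 1.28. Basp1, a membrane protein, had 1.30 and 2.02. Then came Rgs1 (0.99 and 0.85), Cdca8 (0.81 and 0.80), Zbtb20 (0.73 and 0.78), Mybl1 (0.71 and 0.97), Cd300lf (0.70 and 0.84), Emb (0.75 and 0.68) and Cdc25b (0.66 and 0.68). Of the lipid-handling list, the cholesterol exporters Abca1 (0.25 and 0.40) and Abcg1 (0.31 and 0.27) and the ubiquitin ligase Mylip (0.29 and 0.24) were above 0. Fas, a death receptor of GC B cells, had 0.63 and 0.84, while Cd79b had 0.16 and 0.01. At the far end, picked after the values were seen, were genes of antibody-secreting cells, Igha (−4.43 and −4.58), Ighg2b (−3.49 and −2.49) and Jchain (−1.98 and −2.51). Plasma cells that met the B cell rule are among the B cells compared here. The cycling genes Mki67 (0.40 and 1.24), Top2a (0.32 and 0.94), Birc5 (0.52 and 0.72), Cdk1 (0.18 and 0.51) and Ccnb2 (0.55 and 0.55) were also above 0, although cells of the cycling list had less Apoe per UMI. These are ratios over cells of a single pool per group and were not tested.

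Apoe in B cells was lower with butyrate. It went from 366 to 249 CPM, a log2 ratio of −0.54 (−0.59 to −0.49), where the median of 10348 genes was 0.03. Lyz2 in B cells had a log2 ratio of 0.12 (0.02 to 0.22), which was 0.51 with a pseudocount of 1 CPM and 0.82 as UMIs per cell, and C1q had under 50 UMIs and was not compared. The ratio was −0.62 in B cells with Fcer2a and −0.26 in those without, and −0.57 in B cells with Ighd and −0.02 in the few without. It was −0.73 in memory list cells, −1.001 in GC list cells and −1.20 in cells with Zbtb32, and without the B cells with 10 or more Apoe UMIs it was −0.35, a setting chosen after seeing the data. Between libraries, 0.087% of genes were lower and 0% higher by more than 1 on the log2 scale in B cells, and neither of the 2 members with enough UMIs passed that mark. In T cells, where 0.0687% of 10184 genes were lower and 0.0196% higher by that much, Apoe had −0.49 (−0.63 to −0.34). Without the 3 cells named above it was −0.13, with an interval from −0.27 to 0.02. Apoe in T cells lay under the added 10 CPM in both libraries, which shrinks this ratio. As UMIs per cell, with the 3 cells kept, it was −1.1. With 1 pool per group these differences cannot be told apart from differences between pools.

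In Lyz2 cells no member differed between libraries by more than 1 on the log2 scale, and the directions rested on few cells. The log2 ratio, with over w/o butyrate, was 0.20 for Apoe (0.06 to 0.34), −0.01 for C1qa (−0.17 to 0.16), 0.43 for C1qb (0.27 to 0.59), 0.12 for C1qc (−0.08 to 0.32) and 0.14 for Lyz2 (0.08 to 0.20). Thus 0 of 5 members passed 1 on that scale, beside 2.87% of 2649 genes lower and 1.77% higher. Lyz1 had 1.90 (1.23 to 2.58). The top cell held 23.2% and 36.3% of the Apoe UMIs and 17.9% and 25.8% of the C1q UMIs of its class, and without the top cell of each gene the ratio of Apoe was −0.026. Without the 14 and 14 Lyz2 cells that also held a Cd79a or Cd3e UMI, the ratios were −0.82 for Apoe, −0.35 for summed C1q, −0.12 for C1qb and −1.03 for Lyz2. With butyrate the cells left out included the top Apoe cell (336 UMIs) and cells with 1075 and 838 Lyz2 UMIs. Each of these held 1 Cd79a UMI. The direction in Lyz2 cells thus depended on those cells.

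Lyz2 cells were a mixed class. By marker lists, 16 w/o and 11 with butyrate carried macrophage genes, 11 and 3 monocyte genes and 4 and 2 neutrophil genes, 0 and 1 carried conventional dendritic cell genes, and 12 and 20 took no class. Apoe stood at 2433 and 2790 CPM in the cells with macrophage markers and at 1714 and 2756 CPM in those with monocyte markers, and the neutrophil cells had 2 and 0 Apoe UMIs. C1q had 895 and 1424 UMIs in the macrophage cells, 593 and 375 in the cells of no class, 75 and 0 in the monocyte cells and 0 and 0 in the neutrophil cells. Of the 75, 74 lay in 1 cell. The neutrophil list summed to 78.5 and 116 UMIs per cell in Lyz2 cells and the monocyte list to 65.7 and 194. Both sums were higher with butyrate, although fewer cells were then assigned to either list. How these sums were spread over the cells was not measured. The macrophage marker list summed to 19.3 and 16.3 UMIs per cell in Lyz2 cells, to 0.00883 and 0.00597 in B cells and to 0.0156 and 0.0178 in T cells, and 2 and 4 of its 8 genes were at 0 in B cells. Lyz2 cells also held 3.74 and 3.46 UMIs per cell of the B cell list and 1.84 and 4.08 of the T cell list. At the threshold, 5 and 3 of the Lyz2 cells had 3 to 5 Lyz2 UMIs, 3 and 6 further cells had exactly 2 and were left out, and the class ran from 4 to 628 w/o and from 3 to 1075 with butyrate, with medians of 38 and 29.

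Apoe and C1q were found together in some Lyz2 cells and apart in others. At least 3 UMIs of both were found in 15 cells w/o and 16 with butyrate, of C1q alone in 7 and 5, of Apoe alone in 13 and 4, and of neither in 8 and 12. In the cells with 3 or more C1q UMIs Apoe stood at 1111 CPM w/o and 2724 CPM with butyrate, and in the others at 2908 and 857 CPM. Which of these held more Apoe was therefore opposite in the libraries. Over single Lyz2 cells of 1 library, the Pearson r of log-normalized Apoe with C1qb was 0.14 w/o butyrate (43 cells) and 0.72 with butyrate (37 cells), with C1qa 0.08 and 0.66, and with C1qc 0.10 and 0.60. The C1q chains went together in both, with r of C1qa to C1qc of 0.95 and 0.79 and to C1qb of 0.92 and 0.78. These cells share a library and differ in depth, from 611 to 49260 UMIs w/o and from 771 to 47815 with butyrate.

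**Figure D5:**
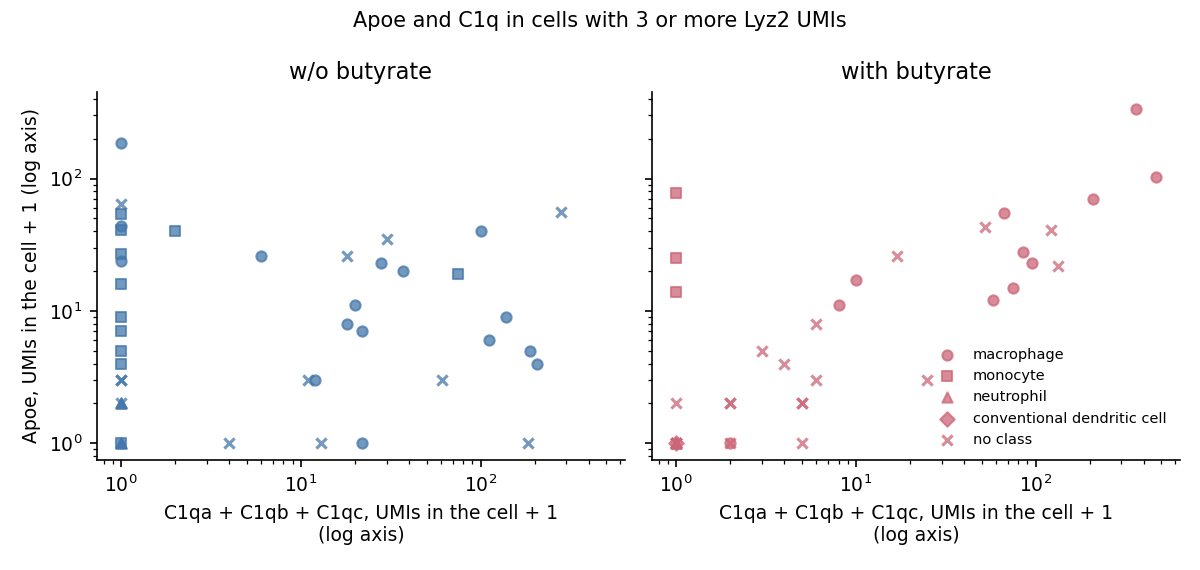
Apoe UMIs and summed C1q UMIs of each Lyz2 cell (both plus 1, log axes), by library and by the marker class of the cell. Cells with high C1q and high Apoe appear in both libraries (15 and 16 with at least 3 of each), and 13 cells w/o but only 4 with butyrate had at least 3 Apoe UMIs with fewer than 3 of C1q.

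Of 6484 genes, the 5 most like Apoe over Lyz2 cells by the lower r of both libraries were Lyz2 (0.55 and 0.65), Ctsc (0.48 and 0.47), Selenop (0.45 and 0.44), Vcam1 (0.42 and 0.44) and Lgals3bp (0.38 and 0.37). Ctsc is a lysosomal protease, Selenop a selenium carrier and Vcam1 an adhesion molecule of lymph node macrophages and endothelium. Those most like C1qa were C1qc and C1qb, then Ctsc (0.45 and 0.46), Ptgs1 (0.44 and 0.46) and Selenop (0.43 and 0.44).

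Genes of the same pathways were compared between libraries in Lyz2 cells, where the median of all genes was −0.05 on the log2 scale and 2.87% were lower and 1.77% higher past 1. Of 16 complement partners 7 had enough UMIs, 1 was lower with butyrate past 1 on the log2 scale, 0 were higher and the median was −0.04. The lower gene was Cd93 (−1.27), a receptor once linked to C1q, while C4b (0.71), Cfp, the stabilizer properdin (0.75), and C3 (−0.38), the central complement protein, were within that mark. Of 24 genes of Apoe lipid handling 12 had enough UMIs, with 1 lower (Lpl, a lipase that frees fatty acids from lipoproteins, −2.01), 1 higher (Pltp, a phospholipid transfer protein, 1.28) and a median of −0.39. Of the 30 macrophage genes 23 had enough, with 3 lower, the scavenger receptor Marco (−1.26) and the lysosomal proteases Ctsb (−1.09) and Lgmn (−1.43), 0 higher and a median of −0.29. The differing number of macrophage and monocyte cells stands beside all these values, and its part in them was not tested. These list genes rest on the same few Lyz2 cells as the members, and leaving out cells was not tried for them. In B cells 3, 14 and 12 genes of the 3 lists had enough UMIs and in T cells 1, 15 and 10, and none was past 1 on the log2 scale. In B cells the medians were −0.02, 0.07 and 0.01, with Tyrobp, an adaptor of myeloid receptors, at 0.35 and Pltp at 0.29.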

How the data were processed

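The authors made and deposited, for each library, raw counts of UMIs per gene and cell with no normalization, from the 10x Genomics 3′ kit (version 3). Cell Ranger 6.0.1 and mm10 are named in the submitters' processing notes. GENCODE M21 holds 30934 of the 31053 gene identifiers.

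Cells were kept at no more than 10% mitochondrial UMIs and no fewer than 200 genes, which took out 186 w/o and 327 with butyrate. Doublets were taken by Scrublet score, highest first, as 0.8% for every 1000 cells of the library (747 and 613). Total UMIs deposited were 59176459 and 58381292. Classes were set by UMIs of Lyz2, Cd79a and Cd3e as given above, and Lyz2 cells were assigned to the marker list with the most detected genes, with at least 3 required. NK cells had a UMI of Ncr1, dendritic cells at least 3 detected genes of their list, plasma cells UMIs of Jchain and of Sdc1 or Tnfrsf17, and CD4 and CD8 T cells UMIs of these genes among T cells. The members, lists and classes were chosen with earlier results of these data known. Sums of UMIs have exact Poisson intervals, shares exact Clopper-Pearson intervals and ratios exact conditional binomial intervals, all at 95%, and a count of 0 is taken to allow 3 counts. Library ratios compare log2(CPM + 10) of the summed class, where both libraries together had 50 UMIs or more, and the added 10 CPM understates changes of low genes. Thinning to 2000 UMIs used the expected share, not a random draw. No test was made, since each group is 1 library.

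The genes named are the members, Lyz1, Cd79a, Cd3e, list genes with at least 50 UMIs, the 10 genes most like Apoe over B cells, and the 5 most like Apoe and C1qa over Lyz2 cells with a UMI in at least 10% of these. Genes picked otherwise are said to be, and a few genes that this rule takes are not reported here. The library comparison in B cells was tried on simulated data (10318 genes) with counting error only. All 195 genes given a log2 change of 1.5 came out in the right direction. Smaller changes and spread among cells or pools were not simulated. Scripts ran under Python 3.11.15 with scanpy 1.11.5 for Scrublet, scipy 1.17.1 for intervals, and numpy 2.4.6 and pandas 2.3.3. Alternatives covered doublets, the mitochondrial limit, the class thresholds, Lyz2-cell cleaning, thinning, the top cell, scaling and pseudocount, and 3 chosen after seeing the data.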

Additional observations from a re-analysis of the deposited data

Results flagged for a closer look

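Apoe had a log2 ratio, with over w/o butyrate, of 0.2003 in Lyz2 cells and of −0.5375 in B cells, so the libraries differed in opposite directions. In T cells it was −0.4885, again opposite to the 0.2003 of Lyz2 cells. Without the 3 T cells with 10 or more Apoe UMIs, all w/o butyrate, the T cell ratio was only −0.13. The differences between cell classes were not tested, as each group is 1 library. Without the top Lyz2 cell the ratio in Lyz2 cells was −0.026. Without the Lyz2 cells that held Cd79a or Cd3e UMIs it was −0.82, the direction seen in B cells. The cells then left out included the top Apoe cell with butyrate.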

How the results depend on the processing

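Of 294 values over 33 results, 243 stayed within the interval of the value reported and 46 moved beyond it. In 5 a library ratio in Lyz2 cells whose interval did not span 0 changed sign. B over T ratios whose interval spans 0, as for C1q and Lyz2, are counted among the moved. No paired analysis was possible because each group is 1 library and the labels give no shared replicate numbers. B over T ratios and library ratios below are log2 values, given w/o and then with butyrate. As reported, B over T was 4.91 and 5.48 for Apoe, 0.43 and 0.36 for C1q and 0.26 and 0.20 for Lyz2. For Apoe w/o butyrate it was 5.51 at no more than 5% mitochondrial UMIs, 5.18 with B and T cells set by at least 1 UMI, 5.33 without the top cell and 5.78 without the T cells with 10 or more Apoe UMIs. As CPM it was 5.25 and 5.96, and with butyrate 5.96 after thinning. With no Lyz2 limit on B and T cells it was 4.52 and 5.05, that of C1q was −1.48 w/o butyrate, that of Lyz2 was −0.74 and −1.07, Apoe exceeded C1q by 6 w/o and Lyz2 by 6.12 with butyrate, and the library ratio of Lyz2 in B cells was 0.89. The share of B cells with an Apoe UMI was 30.2% and 23.0% after thinning. In Lyz2 cells, the library ratio of Lyz2 was 0.28 when doublets were kept and 0.28 when Scrublet set the threshold itself. It was 0.33 for C1q after thinning, and 0.42, 0.42 and 0.36 for Apoe, C1q and Lyz2 as UMIs per cell. Without the top cell it was −0.026 for Apoe. Without Lyz2 cells holding Cd79a or Cd3e UMIs it was −0.82, −0.35 and −1.03 for Apoe, C1q and Lyz2 and −0.12 for C1qb. As a percent of the level in the remaining Lyz2 cells, Apoe in B cells was then 10.0% and 9.90%, and with butyrate C1q and Lyz2 in B cells were 0.0154% and 0.0195% and Apoe and Lyz2 in T cells 0.222% and 0.0170%. With 5 or more Lyz2 UMIs per Lyz2 cell, Apoe in B cells was 10.2% and 5.20%. The library ratio of Lyz2 in B cells was 0.51 with a pseudocount of 1 and 0.82 as UMIs per cell. That of Apoe in B cells was −0.35 without B cells with 10 or more Apoe UMIs. That of Apoe in T cells was −0.19 at no more than 5% mitochondrial UMIs, −0.66 after thinning, −0.30 without the top cell, −1.09 with a pseudocount of 1, −1.10 as UMIs per cell and −0.13 without T cells with 10 or more Apoe UMIs. Leaving out the cells with 10 or more Apoe UMIs, and the barcodes found in both libraries, was chosen after seeing the data. The causes were not tested. With 0 Lyz2 UMIs required in B and T cells there is no Lyz2 value, and a minimum of 200 UMIs left none for Lyz2 in B cells. The 43 and 37 Lyz2 cells and the few C1q UMIs elsewhere limit the precision.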
